A study of Rattus norvegicus with 6 samples.

Results

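The non-collagen extracellular matrix of the arterial wall was followed through 42 genes that encode elastic fibre proteins, matrix proteoglycans, basement membrane glycoproteins, adhesive and matricellular glycoproteins, and a pair of collagen processing proteins. They were chosen by name for these roles, with earlier results of these data known. All 42 were in the count table of 22574 gene symbols. The study exposed primary rat aortic smooth muscle cells (RASMCs) to components of extracellular traps, the chromatin webs that macrophages and neutrophils release, and sequenced polyadenylated RNA from 3 exposed and 3 control samples. The exposed group, H3CIT+dsDNA, received citrullinated histone H3 at 0.03 μM together with double-stranded DNA at 300 ng/ml, and the control group received bovine serum albumin. The cells of both groups came from aortas of male Sprague-Dawley rats aged 8 weeks and were cultured. The length of the exposure is not given in the sources used here. Cells from the same rat were plated in separate wells, so that p-values measure the spread between these cultures rather than between animals. The 6 libraries held between 17573905 and 18742395 counts.

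Vascular smooth muscle cells make most of the matrix of the arterial media. Elastin is laid down on microfibrils of fibrillin, fastened by lysyl oxidases and arranged with the help of fibulins, while proteoglycans hold water and growth factors and basement membrane proteins surround each cell. When these cells leave the contractile state, as they do in atherosclerotic plaques, the mixture of matrix proteins that they secrete is known to shift. The comparison asked whether the transcripts of this matrix differed in level between the H3CIT+dsDNA and control cultures.

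The smooth muscle label was checked against 10 marker genes, all of which were above the low-count filter in these libraries. Acta2, smooth muscle actin, with the highest CPM of them, was counted 52005, 53594 and 62392 times after H3CIT+dsDNA and 89777, 98777 and 87659 times in the controls. Summed over the list, the markers reached 7551, 7973 and 8062 counts per 1000000 counts of the scaled library (CPM) against 10677, 11013 and 10232, and 4 of the 10 (Acta2, Tagln, Cnn1 and Smtn) fell while 1, Myocd, rose. Cald1 was higher in every exposed library than in any control without passing the test (log2 fold change 0.16, adjusted p 0.102). In CPM, though not in counts, Lmod1 was lower in every exposed library, also without passing (-0.060, adjusted p 0.563). Myh11 was not called (0.061, adjusted p 0.461). Most of the lower sum lay in Acta2, at 3115 ± 292 against 5025 ± 300.1 CPM, and Tagln, at 2032 ± 108 against 2690 ± 88.8 CPM. Cnn1, calponin, had 2546, 2558 and 2448 counts against 8766, 6566 and 7555, a wide spread among the controls for a gene of that depth (SD 69.2 CPM on a mean of 417). Over all tested genes, 1.94% were called higher and 0.262% lower. Markers of other arterial cells were counted in the same way. Of 10 adventitial fibroblast markers, 4 were tested and 0 called, Cd34 was at 0 in every library and Pdgfra at 14 counts or fewer, with Serpinf1 highest in CPM (471 ± 4.67 against 484 ± 29.3) and a summed level of 497, 510 and 504 against 549, 509 and 490 CPM. Of 10 endothelial markers, 6 were tested and 0 called, and Egfl7 was highest in CPM, with sums of 116, 121 and 112 against 120, 124 and 125 CPM. Of 13 macrophage markers, 6 were tested and 0 called, and Cd14 was highest in CPM, with sums of 74.9, 74.7 and 76.5 against 77.1, 79.0 and 75.5 CPM, and C1qb and C1qc were at 0. The part that the lower smooth muscle marker sum may have in any member's level was not tested, and in bulk RNA fewer cells of a type and less RNA per cell cannot be told apart.

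Of the 42 matrix genes, 37 passed the low-count filter and were tested with edgeR's quasi-likelihood test, and 2 of them were called at a Benjamini-Hochberg adjusted p under 0.05, a share of 5.41% beside 2.20% of the 12591 genes tested. The 2 were Vcan and Ogn, and Ogn passed the filter through its H3CIT+dsDNA libraries alone, so that it could be tested only because it was high there, which leaves 1 call, Vcan, without it. Both were higher after H3CIT+dsDNA, the direction in which 1.94% of all genes were called, and 0 were lower, beside 0.262% of all genes. At an unadjusted p under 0.05 the members numbered 7, or 18.9%, beside 13.9% of all genes. In 10 members the CPM values of the groups did not overlap, 27.0% beside 19.1% of all genes. Of these, 6 were higher (10.7% of all genes) and 4 lower (8.43% of all genes). The count of 4 lower became 7 with upper-quartile scaling and ranged from 4 to 9 when a library was left out. Of the 28 members with a mean of at least 1000 counts per library, 8 did not overlap. That is 28.6%, beside 23.9% of the 3723 genes of that depth. Of these 8, 4 were higher and 4 lower, beside 350 and 540 of the 3723 genes. An unadjusted edgeR p under 0.05 was found in 21.4% of the 28, beside 18.7%. With so few members these shares lie near the background and are not read as a result about them, and the smallest two-sided exact permutation p that 3 against 3 samples allow for any single gene is 0.1.

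Most members had small and closely bounded differences. The median log2 fold change over the tested members was -0.0038, beside -0.0013 over all genes, with 18 members above 0 and 19 below. The median size of the change was 0.050, beside 0.076 over all genes, which include many of low depth. Over the 28 members with a mean of at least 1000 counts per library it was 0.034, beside 0.049 over all genes of that depth. The median log2 fold change of these 28 was -0.0008, beside -0.019. For the 28 members with a mean of at least 1000 counts per library, 27 had a 95% confidence interval that lay inside a 1.25-fold change in either direction, and the exception was Vcan. Abundant genes in general were measured as tightly, since 96.9% of the 3723 genes at that depth had an interval inside the same limits. Among the 9 tested members with fewer counts, 2 had such an interval, so that changes of that size were not detectable in the other 7. The estimates of 15 members, none called, changed sign under at least 1 other way of scaling, testing or leaving out a library (Bgn, Comp, Emilin1, Fbln1, Fbn1, Fn1, Hspg2, Lama4, Lama5, Lamb1, Lamc1, Ltbp1, Ltbp2, Lum and Thbs1).

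**Figure D1:**
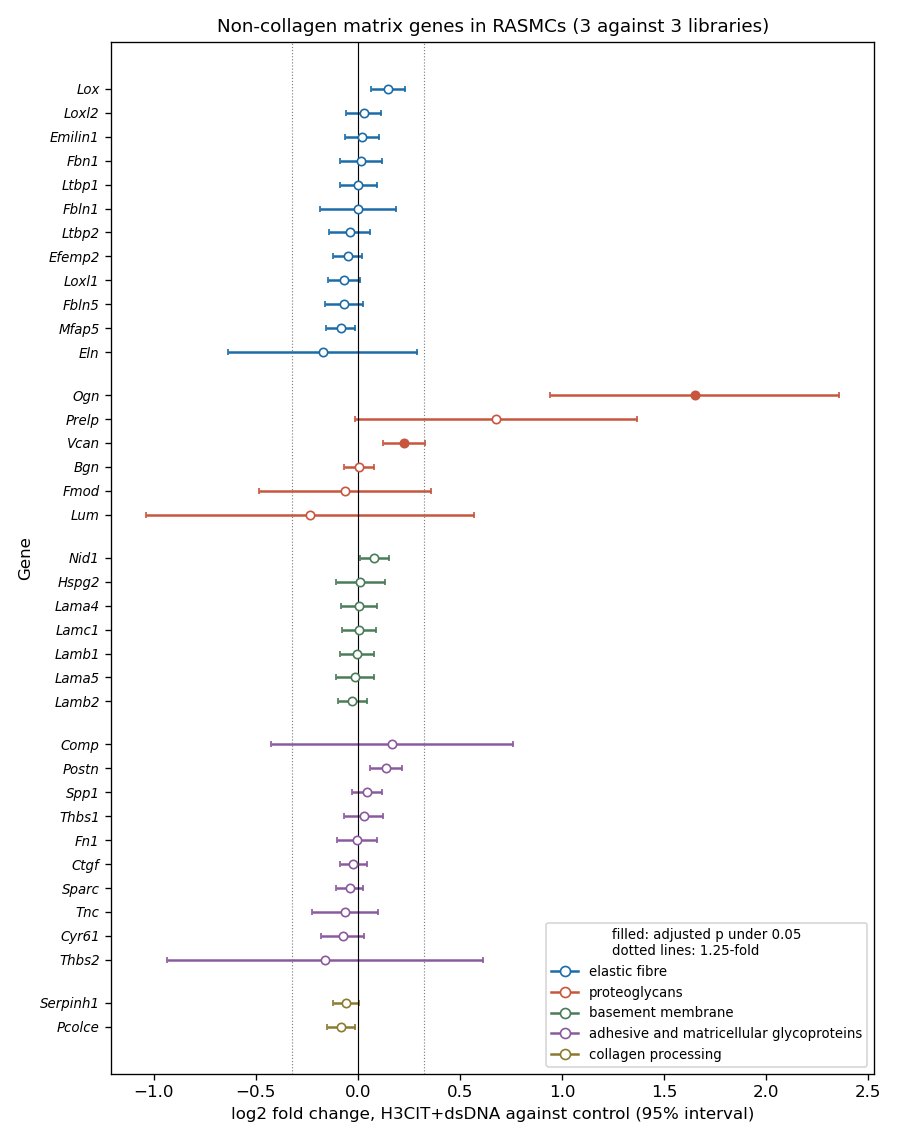
Log2 fold change of each of the 37 tested matrix genes, H3CIT+dsDNA against control, with its 95% confidence interval, grouped by role. The filled points, Ogn and Vcan, had an adjusted p under 0.05; 29 of the 37 intervals lie between the dotted lines at a 1.25-fold change.

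The members together made up a steady share of all counts. The share was 2.87%, 2.76% and 2.85% in the H3CIT+dsDNA libraries and 2.80%, 2.77% and 2.85% in the controls. The lowest value of each group belonged to its replicate 2, and the groups overlapped. By role, the adhesive and matricellular glycoproteins took 1.23%, 1.16% and 1.22% of the counts against 1.17%, 1.18% and 1.21%. The elastic fibre genes took 0.423%, 0.413% and 0.419% against 0.415%, 0.407% and 0.426%. Both of these ranges overlapped between the groups. Basement membrane genes took 0.440%, 0.411% and 0.440% against 0.405%, 0.416% and 0.437%, and proteoglycans took 0.336%, 0.340% and 0.343% against 0.344%, 0.326% and 0.324%. Such shares follow the genes with the most counts and can hide changes in the others. Among the proteoglycans, Bgn had 343784 counts summed over all libraries, Vcan 20980 and Ogn 102. Only the collagen processing pair, Serpinh1 and Pcolce, had a share that was lower in each H3CIT+dsDNA library, at 0.439%, 0.442% and 0.428%, than in any control, at 0.459%, 0.446% and 0.447%.

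Vcan encodes versican, the large hyaluronan-binding proteoglycan of the vessel wall, and was the abundant member that passed the test. It was counted 3919, 3410 and 3883 times in the H3CIT+dsDNA libraries and 3021, 3342 and 3405 times in the controls. Every H3CIT+dsDNA library lay above every control, although replicate 2 of the exposed group, at 3410 counts, stood close to the highest controls. The level rose from 178 ± 7.42 to 208 ± 12.5 CPM (mean ± SD, n = 3 each), a log2 fold change of 0.23 (SE 0.048, 95% interval 0.12 to 0.33) with an edgeR adjusted p of 0.0250. The call was kept in 10 of 15 alternatives, with estimates between 0.19 and 0.27 and adjusted p-values between 0.00101 and 0.176. Of the 5 losses, 4 came when a single library was left out, at an adjusted p of 0.176 without H3CIT+dsDNA replicate 1, 0.122 without H3CIT+dsDNA replicate 3, 0.125 without control replicate 1 and 0.0828 without control replicate 2.

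Ogn encodes osteoglycin, a small leucine-rich proteoglycan of the artery also known as mimecan, and was called from very few reads. It was counted 21, 23 and 33 times after H3CIT+dsDNA and 8, 9 and 8 times in the controls. The groups did not overlap, and the control counts were nearly equal, while replicate 3 of the exposed group was the highest. The level rose from 0.455 ± 0.0276 to 1.43 ± 0.346 CPM, a log2 fold change of 1.65 (SE 0.33, 95% interval 0.94 to 2.36) with an edgeR adjusted p of 0.0166. Ogn passed the low-count filter, set at 0.555 CPM in 3 libraries, through its H3CIT+dsDNA libraries alone (3 of 3, against 0 of 3 controls), so its call is given as a description, and a filter of at least 10 counts in every library left it untested. In the 14 alternatives that tested it, the call was kept in 8, with estimates between 1.44 and 1.78 and adjusted p-values between 0.00742 and 0.101. The losses included DESeq2, at 0.0595, and the fits without H3CIT+dsDNA replicate 3 (0.101), control replicate 1 (0.0886), control replicate 2 (0.0731) or control replicate 3 (0.0519). In the RefSeq annotation Ogn lies inside the span of Cenpp, which is not analysed here, and the strand setting of the counting is not given in the sources used here, so reads of an overlapping transcript cannot be told apart from its own. Omd, Aspn and Ecm2, its neighbours within that span, had at most 1 count in any library.

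The other small leucine-rich proteoglycans, which bind collagen fibrils and growth factors, differed widely in how many reads they had. Bgn, biglycan, was counted 56486, 56207 and 57829 times against 58894, 57651 and 56717 times, and its groups overlapped closely. Its mean was 3163 ± 41.8 CPM against 3154 ± 129 CPM, a log2 fold change of 0.0042 (SE 0.033) with an adjusted p of 0.974. The 95% interval, -0.068 to 0.076, was the narrowest of the 6 tested proteoglycans. Prelp, a proteoglycan that anchors basement membranes to connective tissue, was counted 26, 32 and 25 times against 17, 11 and 25 times. Its groups did not overlap in CPM, but control replicate 3 equalled the lowest exposed count and the log2 fold change of 0.68 (SE 0.32) had an adjusted p of 0.373. Lum, lumican, was at the margin of detection with 8, 15 and 12 counts against 18, 12 and 12. Its mean of 0.651 ± 0.205 CPM against 0.767 ± 0.209 gave -0.24 (SE 0.37) and an adjusted p of 0.831, which leaves a wide range of changes possible. Fmod, fibromodulin, had 48, 43 and 48 counts against 44, 51 and 53, overlapping throughout, with a log2 fold change of -0.062 (SE 0.19).

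Dcn, decorin, a leading proteoglycan of adventitial fibroblasts, was almost undetected in these cells. It had 9, 2 and 4 counts after H3CIT+dsDNA and 0, 0 and 5 in the controls, or 0.277 ± 0.198 against 0.0898 ± 0.156 CPM, and was not tested. Aspn, asporin, had 0 counts in all 6 libraries, which allows a level of up to 0.162 to 0.170 CPM, the value of 3 counts in a library (counting error only).

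In the elastic fibre, the core protein itself had few reads. Eln, tropoelastin, was counted 44, 44 and 37 times after H3CIT+dsDNA and 40, 48 and 56 times in the controls. The groups overlapped, and control replicate 3 was the highest library. The mean was 2.32 ± 0.247 CPM against 2.61 ± 0.389 CPM, a log2 fold change of -0.17 (SE 0.21, 95% interval -0.64 to 0.29) with an adjusted p of 0.773. A change of up to about these limits in either direction was not detectable at this depth.

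Of the microfibril on which elastin is laid down, Fbn1 and Mfap5 were counted in every library and Mfap4 was not. Fbn1, fibrillin-1, the main microfibril protein, was counted 8129, 7032 and 8026 times against 7424, 7697 and 8286 times. By count the lowest library was H3CIT+dsDNA replicate 2 and the highest control replicate 3, and the groups overlapped. The mean was 429.8 ± 26.8 CPM against 426 ± 17.9 CPM, with a log2 fold change of 0.014 (SE 0.047) and an adjusted p of 0.931. Mfap5, a microfibril-associated glycoprotein, was counted 14191, 14377 and 13969 times against 15131, 15353 and 15495 times. Every exposed library was below every control, but the log2 fold change of -0.084 (SE 0.033) had an adjusted p of 0.267. Mfap4, a second microfibril-associated protein, had 4, 1 and 2 counts against 0, 4 and 0 and was not tested. Ltbp1, which tethers latent transforming growth factor beta to the matrix, was counted 5148, 4849 and 5151 times against 5005, 4918 and 5495 times. Its mean of 281 ± 5.01 CPM against 280.5 ± 15.5 gave a log2 fold change of 0.0022 (SE 0.041) and an adjusted p of 0.990. Ltbp2, a relative that does not bind the growth factor, had a log2 fold change of -0.041 (SE 0.046).

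The fibulins and emilin, which join elastin to microfibrils, had overlapping groups as well. The log2 fold change was -0.071 (SE 0.043) for Fbln5, fibulin-5. It was -0.050 (SE 0.033) for Efemp2, fibulin-4, which brings lysyl oxidase to the fibre. Fbln1, fibulin-1, was at 0.00045 (SE 0.085) and Emilin1 at 0.019 (SE 0.038). None of these 4 passed the test, beside 2.20% of all genes, and each interval lay inside 1.25-fold.

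None of the 3 lysyl oxidases among the members, enzymes that cross-link elastin and collagen, passed the test, beside 2.20% of all genes. Lox, lysyl oxidase, was counted 11779, 11120 and 11641 times after H3CIT+dsDNA and 9976, 10445 and 11344 times in the controls. In CPM every exposed library was above every control, with control replicate 3 nearest to the exposed group. The mean was 641 ± 9.32 CPM against 578 ± 29.1 CPM, a log2 fold change of 0.15 (SE 0.038, 95% interval 0.066 to 0.23), and the adjusted p of 0.0748 missed the threshold. Lox was called in 5 of 15 alternatives, DESeq2 and the fit without control replicate 3 (adjusted p 0.00562) among them, over a range of adjusted p from 0.00562 to 0.291. Loxl1, the relative most closely tied to elastin, was counted 9062, 8697 and 8442 times against 9251, 9425 and 9330 times. Its groups did not overlap in CPM, in the opposite direction to Lox, and the log2 fold change of -0.068 (SE 0.036) had an adjusted p of 0.428. Loxl2, which acts on collagen IV, overlapped between groups at 0.027 (SE 0.040). The difference between Lox and Loxl1 was not tested.

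**Figure D2:**
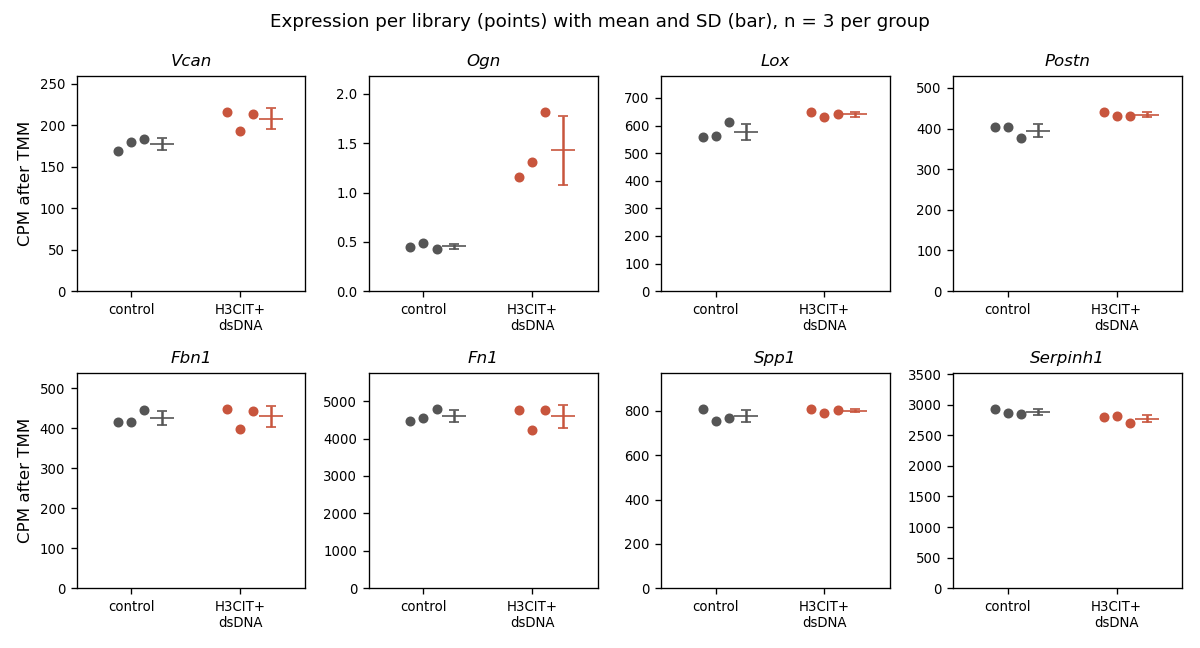
CPM of 8 matrix genes in each library (points) with the mean and SD (bars) of the 3 control and 3 H3CIT+dsDNA libraries. Vcan, Ogn, Lox and Postn have every exposed library above every control, Serpinh1 has every exposed library below, and Fbn1, Fn1 and Spp1 overlap; Vcan and Ogn passed the test.

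Of the 7 basement membrane genes tested, 0 were called by edgeR, beside 2.20% of all genes, 1 had an unadjusted p under 0.05, which is 14.3% beside 13.9% of all genes, and 0 were called under DESeq2 or limma-voom. All 7 intervals lay inside 1.25-fold. Hspg2, perlecan, the heparan sulfate proteoglycan that restrains smooth muscle growth, was counted 10989, 9671 and 11086 times against 9648, 10720 and 11769 times. Its controls spanned the exposed group, with control replicate 1 the lowest and control replicate 3 the highest library. The mean was 588 ± 34.5 CPM against 584 ± 47.1 CPM, with a log2 fold change of 0.011 (SE 0.056) and an adjusted p of 0.958. Nid1, nidogen-1, which links laminin to collagen IV, was counted 22167, 20236 and 21778 times against 19824, 20923 and 21133 times. In CPM its exposed libraries were all above the controls, and the log2 fold change of 0.080 (SE 0.033) had an adjusted p of 0.287. The laminin chains, which form the sheet on which the cell rests, ran from -0.028 for Lamb2 to 0.0067 for Lama4, with Lama5, Lamb1 and Lamc1 between them.

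The 7 basement membrane genes, all with a mean of at least 1000 counts, were also compared between libraries of the same group. Their median deviation from the group mean was 0.013, -0.059 and 0.031 on the log2 scale in the H3CIT+dsDNA libraries and -0.043, -0.0088 and 0.052 in the controls. Over the 28 abundant members, H3CIT+dsDNA replicate 2 held the lowest value of its group in 18, or 64.3%, where it did so for 34.2% of all genes of that depth. The median coefficient of variation of these members was 2.97% in the exposed group and 3.67% in the control group, beside 3.12% and 3.15% for all genes of that depth.

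The adhesive glycoproteins connect cells to the matrix. Fn1, fibronectin, was counted 86403, 74667 and 86677 times after H3CIT+dsDNA and 79739, 84468 and 88971 times in the controls. H3CIT+dsDNA replicate 2 was the lowest library and the groups overlapped. The mean was 4592 ± 308 CPM against 4604 ± 169 CPM, with a log2 fold change of -0.0038 (SE 0.045, 95% interval -0.10 to 0.093) and an adjusted p of 0.983. Postn, periostin, a matricellular protein of remodelling arteries, was counted 7997, 7585 and 7826 times against 7209, 7513 and 6976 times. All exposed libraries were above all controls, and control replicate 3 was the lowest. The mean was 434 ± 5.94 CPM against 395 ± 16.5 CPM, a log2 fold change of 0.14 (SE 0.037), and its adjusted p of 0.0864 missed the threshold. Postn was called in 3 of 15 alternatives (library size alone, DESeq2 and robust dispersion estimates), over adjusted p-values from 0.0270 to 0.333.

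The matricellular proteins, which signal to cells more than they build structure, included none but Postn near the threshold. Spp1, osteopontin, a gene often used to mark smooth muscle cells that have left the contractile state, was counted 14655, 13973 and 14586 times against 14445, 13999 and 14275 times. The groups overlapped, since control replicate 1 was the highest library in CPM. The mean was 801 ± 7.84 CPM against 778 ± 28.4 CPM, with a log2 fold change of 0.044 (SE 0.034) and an adjusted p of 0.612. Thbs1, thrombospondin-1, which activates latent transforming growth factor beta, was counted 36221, 33160 and 37620 times against 33469, 35115 and 38438 times. Its lowest and highest counts, in H3CIT+dsDNA replicate 2 and control replicate 3, left the groups overlapping at 1984 ± 96.1 against 1946 ± 108 CPM, with a log2 fold change of 0.028 (SE 0.044) and an adjusted p of 0.834. Tnc, tenascin-C, which appears in injured arteries, had 638, 564 and 546 counts against 604, 583 and 674. The groups overlapped at 32.4 ± 2.58 against 33.9 ± 2.45 CPM, with a log2 fold change of -0.062 (SE 0.075) and an adjusted p of 0.767. Sparc, osteonectin, had a log2 fold change of -0.040 (SE 0.030), and Thbs2, which was scarce, -0.16 (SE 0.36).

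Cyr61 and Ctgf encode secreted proteins whose transcription is known to follow mechanical tension through the TEAD factors. Cyr61 was counted 4949, 5258 and 4937 times against 5546, 5591 and 5137 times. Control replicate 3 lay among the exposed libraries and the groups overlapped. The mean was 281 ± 15.0 CPM against 296 ± 17.53 CPM, a log2 fold change of -0.076 (SE 0.049) with an adjusted p of 0.529. Ctgf was counted 14961, 14567 and 14601 times against 14824, 15623 and 15287 times, again with overlapping groups. Its mean was 819 ± 12.5 CPM against 832 ± 9.22 CPM, with a log2 fold change of -0.023 (SE 0.030) and an adjusted p of 0.787. Both intervals lay inside 1.25-fold.

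The cartilage-type glycoproteins of the group were scarce. Comp, cartilage oligomeric matrix protein, which in arteries is known to help keep smooth muscle cells contractile, had 45, 37 and 28 counts against 30, 26 and 44. Its groups overlapped at 2.04 ± 0.472 against 1.82 ± 0.499 CPM, with a log2 fold change of 0.17 (SE 0.27) and an adjusted p of 0.838. Mgp, matrix Gla protein, an inhibitor of arterial calcification, had 1, 6 and 6 counts against 0, 0 and 3, or 0.242 ± 0.162 against 0.0539 ± 0.0933 CPM, and was not tested. Matn2, matrilin-2, had 0, 0 and 1 counts against 2, 3 and 2 and was not tested. Counts this low sit at or near the value of 3 counts per library and give no fold change.

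The collagen processing pair acts on the collagen chains after they are made. Serpinh1, the collagen chaperone of the endoplasmic reticulum, was counted 50742, 49504 and 49149 times after H3CIT+dsDNA and 52367, 53246 and 52859 times in the controls. Every exposed library was below every control by a small margin. The mean was 2772 ± 55.9 CPM against 2884 ± 44.8 CPM, with a log2 fold change of -0.057 (SE 0.029, 95% interval -0.12 to 0.0059) and an adjusted p of 0.413. Pcolce, which speeds the removal of the procollagen C-terminal peptide, was counted 28215, 28245 and 27859 times against 30454, 30331 and 30281 times. It was lower in each exposed library than in any control, at a log2 fold change of -0.083 (SE 0.032) with an adjusted p of 0.260. Among 28 tested collagen chains, 2 were called, Col1a1 and Col1a2, both lower, a share of 7.14% beside 2.20% of all genes called and 0.262% called lower. Col1a1 had 16918, 19877 and 21222 counts against 95878, 96424 and 101346. Col1a2 had 656, 897 and 788 counts against 5733, 2352 and 3889, a wide spread among the controls. Neither gene of the pair was called, and the difference between them and the collagen chains was not tested.

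Beyond the 42 members, 150 further matrix genes were listed, relatives in 4 of these roles together with enzymes that modify the matrix, of which 142 were in the table and 90 were tested. Of these 90, 37 of them modifying enzymes, 1 was called, 1.11% beside 2.20% of all genes, and 22 did not overlap between groups, 24.4% beside 19.1%, with 11 higher and 11 lower. The called gene, Adamts1, is from the list of modifying enzymes and encodes a secreted protease known to cleave versican. It was counted 2933, 3100 and 3300 times after H3CIT+dsDNA and 1022, 1011 and 1100 times in the controls. The lowest exposed library was well above the highest control. The level rose from 57.0 ± 2.40 to 173 ± 10.3 CPM, a log2 fold change of 1.60 (SE 0.052) with an adjusted p of 4.33e-10, and the call was kept in 15 of 15 alternatives with estimates from 1.56 to 1.65. Noticed after the values were seen, 3 of its 6 counts are whole multiples of 100, and Adamts1 was the only gene of the 3460 with a mean of at least 1000 and under 10000 counts to have that many, where 1.07% of such counts are multiples of 100. Adamts4, another protease that cleaves versican, had 458, 369 and 441 counts against 395, 390 and 439, with overlapping groups and a log2 fold change of 0.078 (SE 0.082). Adamts5, Adamts9 and Adamts15 never exceeded 3 counts, and the hyaluronan synthases Has1 and Has2 had 0 in all 6. Vcan and Adamts1 were thus both higher in the same libraries, and whether their levels are linked was not tested.

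The 250 bases before the gene start were read from RefSeq promoter sequences of the GRCr8 assembly for 28 of the 42 members, in 29 windows. They were searched on both strands for short words known to bind transcription factors, and a match is a description of the letters only. The TEAD word GGAATG was in the windows of 8 members (Ctgf, Cyr61, Lamc1, Loxl1, Nid1, Ogn, Sparc and Thbs1), or 27.6% of member windows beside 12.1% of all 33469 windows. The TATAAA word, searched on the gene's strand, was in 7 (Ctgf, Cyr61, Lama4, Ogn, Postn, Spp1 and Tnc), 24.1% beside 8.06%. The NF-κB motif was in 5 members, 17.2% of windows beside 6.33%, and the STAT word TTCNNNGAA in 3, 10.3% beside 7.67%. The AP-1 word TGANTCA (6.34% of all windows), the SMAD word GTCTAGAC (0.173%) and the CArG box (1.50%) were in no member window. Some of these words can overlap each other. The holders of GGAATG include 1 called member, Ogn, and 7 that were not called. Vcan, the abundant called member, had 2 windows, neither with any of the searched words, and the upstream one is shown for that reason without capitals. It lies at chr2:22595956-22596205 of GRCr8, on the minus strand, and reads 5′ to 3′ as follows.
Vcan: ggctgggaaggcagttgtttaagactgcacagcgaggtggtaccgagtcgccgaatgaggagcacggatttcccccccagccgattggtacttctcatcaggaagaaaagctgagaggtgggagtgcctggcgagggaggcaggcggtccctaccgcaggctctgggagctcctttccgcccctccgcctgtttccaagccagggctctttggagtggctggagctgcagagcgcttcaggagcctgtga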

How the data were processed

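The deposited table held whole-number counts per gene symbol. The authors prepared stranded mRNA libraries, used TopHat for mapping (Rnor6.0 build) and HTSeq for counting. The submitters' processing notes list TopHat2 2.1.1, Cufflinks 2.2.1 and Cuffdiff. Here counts were filtered with filterByExpr, scaled by the trimmed mean of M values and tested with edgeR 4.0.16 (quasi-likelihood test, R 4.3.3), H3CIT+dsDNA against control, with Benjamini-Hochberg adjustment over all 12591 genes tested. CPM used the scaled library sizes, standard errors came from the quasi-likelihood F, and the steps were tested on simulated data. No 2 libraries of a group agreed within sampling noise. Full values are given for every called member and for 19 members chosen by name; of the further genes, for every called gene. Members and lists were chosen with earlier results of these data known. Alternatives were other scalings, DESeq2 1.42.0, limma-voom (limma 3.58.1), other filters, robust dispersions, a replicate block and leaving out each library. Gene lengths were not used: levels are not compared between members, and the marker with the highest CPM in a list is named without regard to length.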

Additional observations from a re-analysis of the deposited data

How the results depend on the processing

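Of 552 log2 fold changes of the 37 tested members over 15 alternatives, 533 stayed on the same side of the threshold, 11 lost a call, 8 gained one and 0 reversed a called direction. The count of members called, and of members called higher (both 2), became 4 with library size alone (Lox, Ogn, Postn and Vcan), 4 with robust dispersion estimates (the same 4), 1 with at least 10 counts in every library (Vcan), where Ogn was not tested, and ranged from 0 to 2 when each library was left out. It was 0 without H3CIT+dsDNA replicate 3, control replicate 1 or control replicate 2; fewer samples enter those fits. DESeq2 called Lox, Postn and Vcan. Calls over all genes moved too, from 277 to 340 with library size alone and 376 with robust dispersion estimates. They were 284 with DESeq2 and 277 with at least 10 counts in every library. Members called lower were 0 under every alternative. With the replicate block, members called were 0 (adjusted p 0.0549 for Vcan and 0.0519 for Ogn) and genes called 212; same-numbered samples deviated together with correlations of -0.0458, 0.00452 and 0.0355, so the numbers do not pair the samples. Genes called of all tested (277) ranged from 164 to 357 when a library was left out, with 164 lacking H3CIT+dsDNA replicate 1 and 184 lacking control replicate 1. Members whose groups did not overlap, lower (4), were 7 with upper-quartile scaling and 4 to 9 when a library was left out. The share of all genes not overlapping under these settings is not given here. Groups of fewer libraries overlap less easily for any gene, so leave-out counts are not read as a result about the members. Upper-quartile scaling used all 6 libraries, and under it the median log2 fold change over all genes was -0.018, beside -0.0013 in the main fit. Its count of 7 is not read as a result about the members either, and the cause was not tested. The median log2 fold change of the members ranged from -0.023 to 0.016. With upper-quartile scaling it was -0.021, beside -0.018 over all genes. With library size alone it was 0.016, beside 0.018 over all genes. Without H3CIT+dsDNA replicate 3 it was -0.023, beside -0.0037 over all genes. Depth limits the 9 members with fewer than 1000 counts: changes under 1.25-fold were not detectable in 7 of them, and 5 members could not be tested.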

Other observations

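Tgm2, the transglutaminase that cross-links matrix proteins, had 2321, 2227 and 2349 counts after H3CIT+dsDNA and 2258, 2380 and 1021 in the controls. Control replicate 3 was low by itself, and the log2 fold change of 0.31 (SE 0.21) had an edgeR adjusted p of 0.567. Where the mean of a group reached 20 counts, 0 of 33 members in the control group and 0 of 35 members in the H3CIT+dsDNA group had counts that were 3 consecutive whole numbers, beside 0.373% and 0.364% of all genes.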
